A study of Mus musculus with 6 samples.

Results

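The genes described here were grouped for parts in receptor loss and clearance of platelets. They are the sheddases Adam10 and Adam17, the glycan enzymes B4galt1, St3gal4 and Gne, the phospholipid scramblase Ano6 and the calpain Capn1. They were chosen by gene symbol, 7 of the 24346 symbols in the tables, and all 7 had a row in every library. Full-length cDNA libraries were sequenced from blood platelets of mice homozygous for a knock-in of R734C in integrin β3 (Itgb3), 3 libraries, and of wild-type mice, 3 libraries. The knock-in carries this missense change on both copies of the gene, and the labels give neither the age nor the strain of the mice. The labels also do not say whether the libraries of a group came from separate animals, so a p-value here reflects how much these samples varied, and that variation may be technical. The study set out to compare gene expression between knock-in and wild-type platelets, and its title names macrothrombocytopenia, large platelets in low number. Values are FPKM, fragment numbers scaled to transcript length and to library size. How library size was set is not given in the sources used here.

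Platelets lose surface receptors when metalloproteases cut them close to the membrane. ADAM10 is known for cutting the collagen receptor GPVI, and ADAM17 for cutting GPIbα and GPV of the von Willebrand factor receptor complex. The glycans that remain on the surface end in sialic acid, and glycans that lose it expose galactose, which hepatic lectin receptors recognise in platelet clearance. GNE starts sialic acid synthesis, B4GALT1 adds the galactose and ST3GAL4 caps it with sialic acid. ANO6 (TMEM16F) moves phosphatidylserine to the outer leaflet when calcium rises, and its loss in humans causes the bleeding disorder Scott syndrome. Calpain-1 is a calcium-activated protease of the cytosol that cuts talin and the cytoplasmic tail of integrin β3.

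The stretch before the start site is shown for the member that passed the test (Adam10), for the other sheddase (Adam17) and for the scramblase (Ano6), whose groups differed least of the 6 tested members. Each is 250 bases of RefSeq sequence on GRCm38.p6, on the strand of the gene, and ends at the base before the start site. Adam10 is chr9:70678732-70678981 (plus strand), Adam17 is chr12:21373633-21373882 (minus strand) and Ano6 is chr15:95790593-95790842 (plus strand). Capitals mark the GC box GGGCGG or its reverse complement CCGCCC.
Adam10: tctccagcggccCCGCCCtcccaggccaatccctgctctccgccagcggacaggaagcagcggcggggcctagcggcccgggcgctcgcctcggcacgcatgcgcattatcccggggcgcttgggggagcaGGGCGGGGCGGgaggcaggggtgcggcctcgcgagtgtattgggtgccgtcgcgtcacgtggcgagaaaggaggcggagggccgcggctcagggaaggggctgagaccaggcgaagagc
Adam17: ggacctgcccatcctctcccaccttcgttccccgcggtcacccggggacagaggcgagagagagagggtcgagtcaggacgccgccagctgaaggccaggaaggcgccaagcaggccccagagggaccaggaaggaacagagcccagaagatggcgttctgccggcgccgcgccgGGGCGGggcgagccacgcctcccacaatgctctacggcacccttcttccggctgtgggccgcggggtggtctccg
Ano6: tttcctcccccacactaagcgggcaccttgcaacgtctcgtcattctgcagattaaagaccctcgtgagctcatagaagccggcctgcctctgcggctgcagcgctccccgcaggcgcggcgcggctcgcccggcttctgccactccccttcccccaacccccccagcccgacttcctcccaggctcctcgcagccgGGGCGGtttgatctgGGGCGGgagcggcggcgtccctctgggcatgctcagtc

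The GC box occurred 3 times in the Adam10 stretch, where a pair of matches share a base and print as a single run of capitals, once in Adam17 and 2 times in Ano6. It was present in 32.7% of 32851 RefSeq promoter stretches of the same length. The GC content was 74.0% for Adam10, 70.4% for Adam17 and 68.4% for Ano6, against a median of 52.4% over all of these stretches. GATA, on either strand, occurred once in Adam10 and in neither Adam17 nor Ano6, and 53.6% of all stretches held it. The ETS core GGAA, on either strand, occurred 2 times in Adam10, 5 times in Adam17 and 3 times in Ano6 (93.5% of all stretches), and TATAAA in none of them (12.4%). All 7 members matched a RefSeq promoter, with 9 stretches in all, because Gne and Capn1 have more than 1 start.

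The libraries held 8383 to 8998 symbols above 0 FPKM in the knock-in and 8600 to 9006 in the wild type. Summed over all symbols, FPKM was 758381 to 856863 in the knock-in and 641278 to 708432 in the wild type, without overlap. The cause of this difference was not tested, and libraries were not rescaled for the fit reported here. Read counts were not analysed here, and the depth relative to wild-type library 1, read from the low values, was 0.882 to 1.05 in the knock-in and at most 1.05 in the wild type. All 8 platelet markers were measured, with a summed level of 46273 to 51497 FPKM in the knock-in and 49757 to 51709 FPKM in the wild type. This sum joins markers that moved in different directions. Tubb1 averaged 3710 FPKM in the knock-in and 6574 FPKM in the wild type and passed as lower (log2 fold change -0.82, adjusted p = 0.00759 by limma). Without overlap, Ppbp was lower and Pf4 and Gp9 were higher, and none of these passed. The other platelet markers overlapped between the groups and did not pass. The summed erythroid markers ran from 24684 to 179923 FPKM (median 32146) in knock-in libraries and from 37727 to 93411 FPKM (median 47597) in wild-type libraries, with library 1 highest in each group. Of the neutrophil markers 8 of 9, and of the B cell markers all 6, stayed under 1 FPKM in every library. Of the 8 T and NK markers 7 stayed under 1 FPKM, and Cd3d, Cd3e, Cd4, Gzma and Klrb1c were listed at 0 throughout. The other, Nkg7, was higher in the knock-in without overlap and did not pass. Of the 8 monocyte and macrophage markers 7 stayed under 1 FPKM, and Lyz2 measured 7033 to 9127 FPKM. In such bulk libraries fewer cells of a type and less RNA per cell cannot be told apart.

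Of the 7 members, 6 had a mean of at least 1 FPKM and were tested. In these, 1 was lower in the knock-in and 0 were higher by limma at an adjusted p under 0.05, where 8.36% of all 4859 tested genes passed, 3.99% lower and 4.36% higher. The values of 2 of the 6 did not overlap between the groups, both lower, where 30.7% of tested genes did so in either direction, 15.8% as lower and 14.9% as higher. With 6 genes, counts of 1 and 2 cannot be set apart from those shares. The median log2 fold change of the 6, knock-in minus wild type on the log2(FPKM + 1) scale, was -0.40, and over all tested genes it was -0.014. The fitted value was negative in 6 of the 6 (in 2503 of 4859 over all tested genes), but that of Ano6 turned positive after removal of the transcript length trend and without knock-in library 2 or wild-type library 1 or 2. The members' longest coding transcripts had a median of 4226 bases, against 2716.5 over tested genes, and after removal of the length trend the members' median became -0.35.

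**Figure D1:**
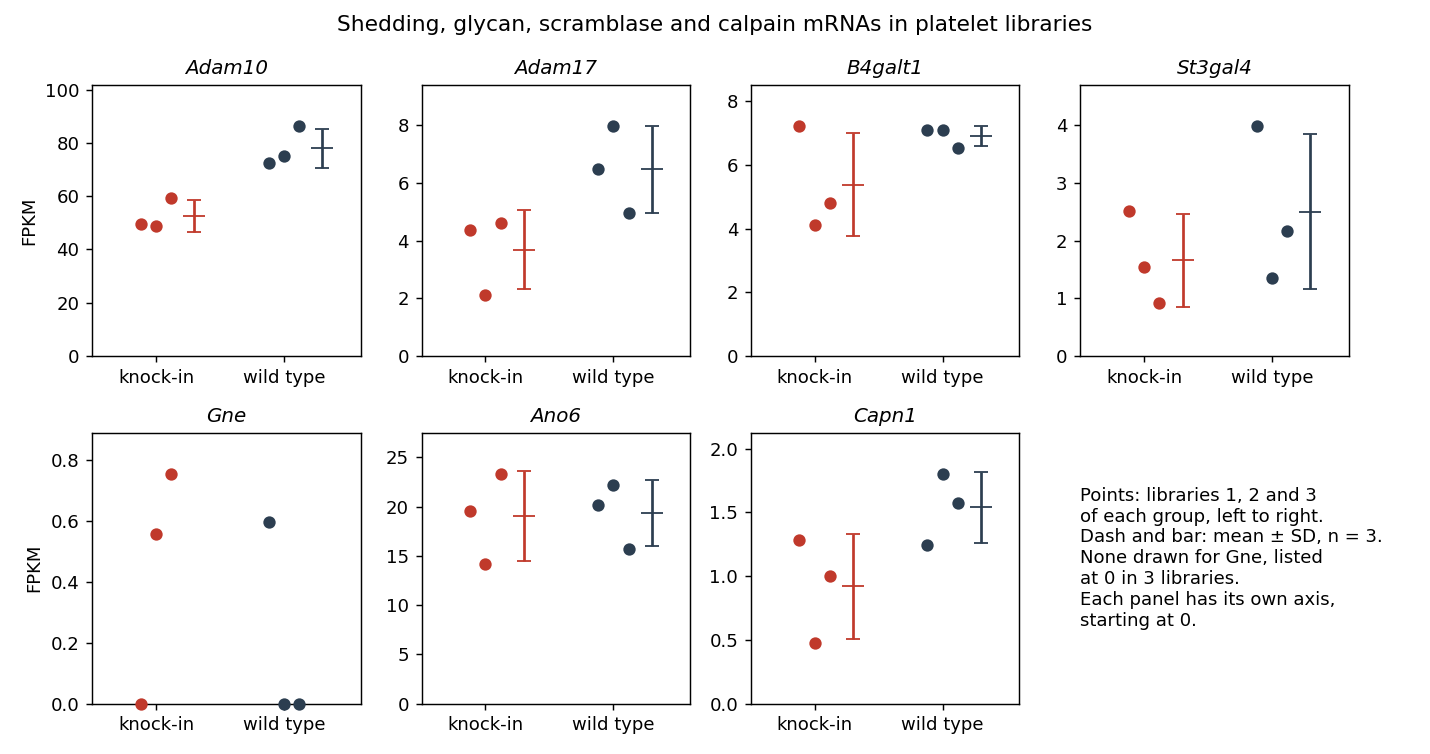
FPKM of the 7 genes in each knock-in library (left, red) and wild-type library (right, dark), with mean ± SD (n = 3) for the 6 tested genes. Adam10 and Adam17 are the genes whose groups do not overlap, and Ano6 averages 19.0 FPKM in the knock-in and 19.3 FPKM in the wild type.

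Adam10, the sheddase of GPVI, was the member with the highest level and the one that fell. It measured 49.5, 48.7 and 59.3 FPKM in knock-in libraries, against 72.5, 75.1 and 86.2 FPKM in wild-type libraries. Every knock-in library lay under every wild-type library. The mean was 52.5 ± 5.89 FPKM in the knock-in and 77.9 ± 7.27 FPKM in the wild type (SD, n = 3 each), 1.49-fold lower. The log2 fold change was -0.56 (SE 0.13, 95% interval -0.86 to -0.27, adjusted p = 0.0336 by limma), and the two-sided exact permutation p was 0.1, the smallest that 3 against 3 libraries can give. The gene (ENSMUSG00000054693.14) spans chr9:70678997-70780229 on the plus strand of GRCm38, and no other annotated gene shares its exons. The direction held in all 17 alternative settings, but the call held in 9: it was lost with no filter on low values (adjusted p = 0.0912), with quantile normalization (0.0550), without the variance trend (0.0962), after removal of the length trend (0.0859), and without knock-in library 2 (0.115) or 3 (0.0655) or wild-type library 2 (0.102) or 3 (0.125).

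Adam17, the sheddase of GPIbα, was scarcer. It measured 4.37, 2.101 and 4.59 FPKM in knock-in libraries, against 6.47, 7.96 and 4.96 FPKM in wild-type libraries. The groups did not overlap, although knock-in library 3 and wild-type library 3 came close to each other. The log2 fold change of -0.70 (SE 0.29, 95% interval -1.36 to -0.035) did not pass (adjusted p = 0.174 by limma; two-sided exact permutation p = 0.1). It passed in 0 of the 17 alternatives, and was -0.43 without knock-in library 2 and -0.40 with a pseudocount of 5. Adam17 (ENSMUSG00000052593.16) spans chr12:21323509-21373632 on the minus strand, and 311 of its exonic bases (4.35%) overlap Iah1 on the other strand, whose fragments cannot be told apart with kits that do not mark strand. Within a library, Adam10 exceeded Adam17 11.3-, 23.2- and 12.9-fold in the knock-in and 11.2-, 9.43- and 17.4-fold in the wild type, so this ratio overlapped between the groups.

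The list of sheddases and their regulators had 13 tested genes of 28, of which 1 fell (Adam10) and 1 rose, with a median log2 fold change of -0.29. Against the 3.99% lower and 4.36% higher of all tested genes, 1 call each way in 13 genes cannot be set apart. The gene that rose encodes Tspan17, one of the tetraspanins that bind ADAM10. Tspan17 measured 442, 472 and 576 FPKM in knock-in libraries, against 316, 363 and 310.1 FPKM in wild-type libraries (log2 fold change 0.58, SE 0.12, adjusted p = 0.0245 by limma). Another ADAM10-binding tetraspanin gene, Tspan14, had 183, 167 and 209.8 FPKM in the knock-in, against 264, 233 and 241 FPKM in the wild type. Its groups did not overlap either, in the other direction, and the value did not pass (log2 fold change -0.40, adjusted p = 0.0638 by limma). The Tspan17 call was lost with no filter (adjusted p = 0.0915), with quantile normalization (0.0568), without the variance trend (0.0996), and without knock-in library 2 (0.0758) or 3 (0.0879) or wild-type library 1 (0.0601), 2 (0.0593) or 3 (0.0970). The Tspan14 value passed with the filter raised to 5 FPKM (0.0425) and after rescaling without erythroid and the most abundant genes (0.0361).

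Tspan33, also an ADAM10 partner, was highest in library 1 of each group, as the erythroid sum was, and the part of erythroid RNA in this was not tested. It measured 56.8, 2.02 and 4.06 FPKM in the knock-in, against 17.8, 13.5 and 7.48 FPKM in the wild type. Its log2 fold change was -0.46 (adjusted p = 0.816 by limma), and without knock-in library 1 it passed as lower. For ADAM17, Frmd8 encodes a protein that stabilises its complex with the iRhom proteins. Frmd8 had 32.9, 35.5 and 28.5 FPKM in the knock-in, against 43.2, 45.4 and 44.2 FPKM in the wild type, without overlap, and did not pass (log2 fold change -0.45, adjusted p = 0.0670 by limma). The iRhom gene Rhbdf2 stayed low, at 0.582 to 2.14 FPKM in the knock-in and 0.803 to 1.51 FPKM in the wild type. Timp3, which encodes an inhibitor of ADAM17, had 4.24, 3.15 and 5.02 FPKM in the knock-in, against 7.52, 7.18 and 10.8 FPKM in the wild type, and did not pass (log2 fold change -0.88, adjusted p = 0.0573 by limma). Frmd8 and Timp3 passed as lower with the filter raised to 5 FPKM and after the rescaling named above. Timp3 shares 21.3% of its exonic bases with Syn3 on the other strand, and Frmd8 a smaller part with the antisense gene Frmd8os, so their levels are less certain.

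**Figure D2:**
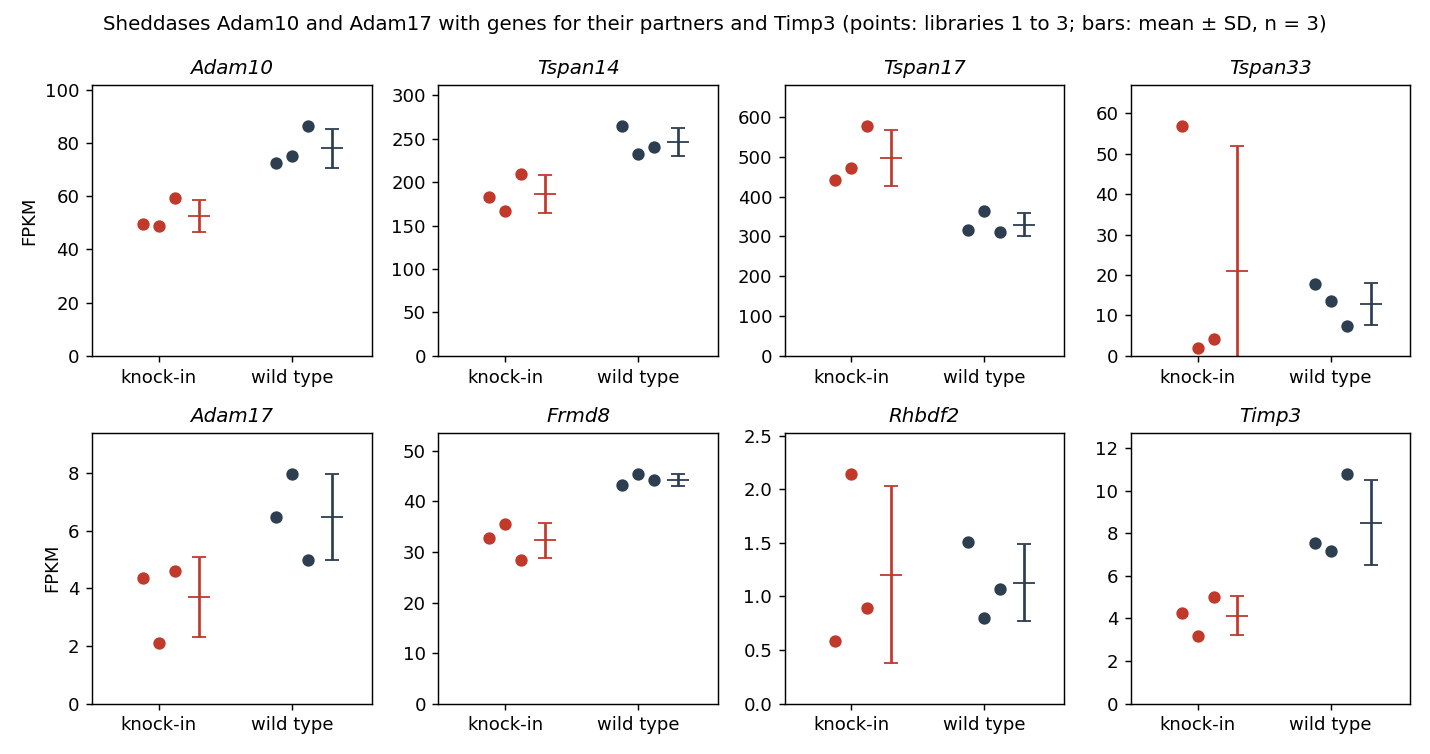
FPKM of Adam10 with the tetraspanin genes Tspan14, Tspan17 and Tspan33 (upper row) and of Adam17 with Frmd8, Rhbdf2 and Timp3 (lower row), for knock-in libraries on the left of each panel and wild-type libraries on the right; bars are mean ± SD (n = 3) and are cut at 0. Tspan17 lies higher in the knock-in and Adam10, Adam17, Tspan14, Frmd8 and Timp3 lie lower without overlap, while a single knock-in library sets the Tspan33 mean.

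Of 14 genes for platelet surface proteins that are known to be shed, 6 were tested, 2 fell and 0 rose, with a median log2 fold change of -0.32. Of all tested genes 3.99% fell, and 15.8% were lower without overlap. In this list 5 of the 6 were lower without overlap: Gp1ba, Selp, Gp5, Gp6 and Cd84. Cd84 did not pass (adjusted p = 0.105 by limma). Whether the counts of this list depart from those shares was not tested. Gp1ba, the ligand-binding chain of the von Willebrand factor receptor, had 193, 190.2 and 193 FPKM in knock-in libraries, against 262, 344 and 308 FPKM in wild-type libraries (log2 fold change -0.65, SE 0.11, adjusted p = 0.0139 by limma). Selp, for P-selectin, had 47.0, 39.9 and 35.7 FPKM in the knock-in, against 70.4, 76.6 and 88.9 FPKM in the wild type (log2 fold change -0.93, SE 0.14, adjusted p = 0.0105 by limma). On the other strand, Gm16548 overlaps 9.9% and Gm16587 4.2% of the exonic bases of Selp, so its level is less certain. Gp5 and Gp6, for GPV and GPVI, did not overlap between the groups and did not pass: Gp5 averaged 875 ± 47.6 FPKM in the knock-in and 1108 ± 119 FPKM in the wild type (SD, n = 3 each; adjusted p = 0.0783 by limma), and Gp6 averaged 508 ± 29.5 FPKM in the knock-in and 607 ± 19.6 FPKM in the wild type (SD, n = 3 each; adjusted p = 0.0985 by limma). For Gp6 the log2 fold change was -0.26, and -0.16 after removal of the length trend. Gp5 passed as lower without wild-type library 1 (adjusted p = 0.0406) and without both libraries richest in haemoglobin (0.0112). The Gp1ba call was lost with no filter (0.0538), without the variance trend (0.0759), and without knock-in library 2 (0.0620) or 3 (0.0655) or wild-type library 2 (0.0593) or 3 (0.0625). The Selp call was lost with no variance trend (0.0623) and, of the libraries left out, without knock-in library 2 (0.0548) or 3 (0.0583) and without wild-type library 2 (0.0559).

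Among the glycan enzymes, B4galt1 adds galactose to N-glycans. It measured 7.21, 4.12 and 4.80 FPKM in knock-in libraries, against 7.08, 7.10 and 6.53 FPKM in wild-type libraries. Knock-in library 1 was the highest of all 6, and the other knock-in libraries lay under every wild-type library. The log2 fold change of -0.34 (SE 0.23, 95% interval -0.86 to 0.18) did not pass (adjusted p = 0.406 by limma; two-sided exact permutation p = 0.4). Leaving out knock-in library 1 gave -0.54 (adjusted p = 0.158) and leaving out knock-in library 2 gave -0.20 (0.693). With both libraries richest in haemoglobin left out it was -0.52 (0.217), and with a pseudocount of 5 it was -0.21. B4galt1 (ENSMUSG00000028413.13) spans chr4:40804602-40854005 on the minus strand, with no other gene on its exons.

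St3gal4, the α2,3-sialyltransferase whose loss in mice lowers platelet number, was low among the tested members, close to the filter of 1 FPKM in several libraries. It had 2.52, 1.53 and 0.917 FPKM in the knock-in, against 3.98, 1.35 and 2.17 FPKM in the wild type. The groups overlapped, and in both groups library 1 was highest. The log2 fold change was -0.37 (SE 0.36, 95% interval -1.19 to 0.44), which did not pass (adjusted p = 0.578 by limma; two-sided exact permutation p = 0.5) and leaves room for a difference in either direction. Leaving out knock-in library 1 gave -0.60 and knock-in library 3 gave -0.16. Leaving out wild-type library 1 gave -0.084 and wild-type library 2 gave -0.63, and a pseudocount of 5 gave -0.16. St3gal4 (ENSMUSG00000032038.7) spans chr9:35046576-35119268 on the minus strand, and 412 of its exonic bases (14.1%) overlap 4930581F22Rik on the other strand.

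Gne, the first enzyme of sialic acid synthesis, was listed at 0 in knock-in library 1 and in wild-type libraries 2 and 3. The other values were 0.556 and 0.754 FPKM in knock-in libraries 2 and 3 and 0.596 FPKM in wild-type library 1. Its mean of 0.318 FPKM was under the filter, so it was not tested. Gne (ENSMUSG00000028479.18) spans chr4:44034075-44084177 on the minus strand. The next steps of sialic acid supply were as scarce: Nans, Nanp and Slc35a1, which encode the synthase, the phosphatase and the Golgi transporter, stayed at or under 0.566 FPKM in every library. Cmas, which encodes the enzyme that activates sialic acid, stood apart at 331, 198 and 201 FPKM in the knock-in, against 367, 330 and 343 FPKM in the wild type (log2 fold change -0.55, adjusted p = 0.110 by limma). Without knock-in library 1, the library richest in erythroid markers, Cmas passed as lower (log2 fold change -0.79, adjusted p = 0.00221).

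Of 28 genes of sialic acid supply, sialyltransferases and sialidases, 9 were tested, 1 fell and 0 rose, with a median log2 fold change of -0.0032. A count of 1 in 9 cannot be set apart from the 3.99% of all tested genes that fell. The gene that fell was St3gal2, a sialyltransferase of O-glycans and gangliosides. It had 13.4, 10.8 and 11.5 FPKM in knock-in libraries, against 17.7, 27.1 and 30.7 FPKM in wild-type libraries, 2.11-fold lower by mean (log2 fold change -0.99, SE 0.22, adjusted p = 0.0283 by limma). St3gal1, a related O-glycan enzyme, averaged 24.1 ± 2.47 FPKM in the knock-in and 24.1 ± 1.30 FPKM in the wild type (SD, n = 3 each; log2 fold change -0.0032, 95% interval -0.32 to 0.31). St6galnac6 had 1.80, 3.43 and 2.83 FPKM in the knock-in, against 1.003, 0.896 and 0.731 FPKM in the wild type, and did not pass (adjusted p = 0.0630 by limma), although it passed as higher without knock-in library 1. St3gal5, the ganglioside GM3 synthase gene, measured 144, 40.2 and 35.9 FPKM in the knock-in, against 85.9, 73.4 and 65.9 FPKM in the wild type, again highest in library 1 of each group. St3gal5 did not pass (adjusted p = 0.708 by limma), and without knock-in library 1 it passed as lower (log2 fold change -0.96, adjusted p = 0.00678), while leaving out knock-in library 2 gave -0.050 and knock-in library 3 gave 0.030. The St3gal2 call was lost with no filter (adjusted p = 0.0975), without the variance trend (0.0759), and without knock-in library 2 (0.103) or 3 (0.102) or wild-type library 2 (0.118) or 3 (0.101). Neu1, the lysosomal sialidase gene, stayed at or under 0.921 FPKM. 

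Of 31 galactose and glycan core genes 14 were tested, 2 fell and 0 rose, where 3.99% of all tested genes fell and 4.36% rose. The median log2 fold change of the 14 was -0.30. Galnt2, which starts O-glycans, had 72.6, 58.9 and 59.8 FPKM in the knock-in, against 88.4, 120.5 and 111 FPKM in the wild type (log2 fold change -0.73, SE 0.15, adjusted p = 0.0228 by limma). Most of its exonic bases, 90.0%, are shared with the annotated read-through gene Gm20388, and its level is therefore less certain. Man1a, a Golgi mannosidase that trims N-glycans, had 19.7, 17.0 and 21.4 FPKM in the knock-in, against 30.4, 39.2 and 35.99 FPKM in the wild type (log2 fold change -0.83, SE 0.15, adjusted p = 0.0167 by limma). Galnt1, the second most abundant of the list, averaged 56.9 ± 10.7 FPKM in the knock-in and 55.5 ± 1.004 FPKM in the wild type (SD, n = 3 each; adjusted p = 0.953 by limma). The Galnt2 call was lost with no filter (0.0833), without the variance trend (0.0795), and without knock-in library 2 (0.0903) or 3 (0.0956) or wild-type library 2 (0.0960) or 3 (0.0899). That of Man1a was lost with no filter (0.0550), without the variance trend (0.0651), and without knock-in library 2 (0.0686) or 3 (0.0588) or wild-type library 2 (0.0765) or 3 (0.0688).

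**Figure D3:**
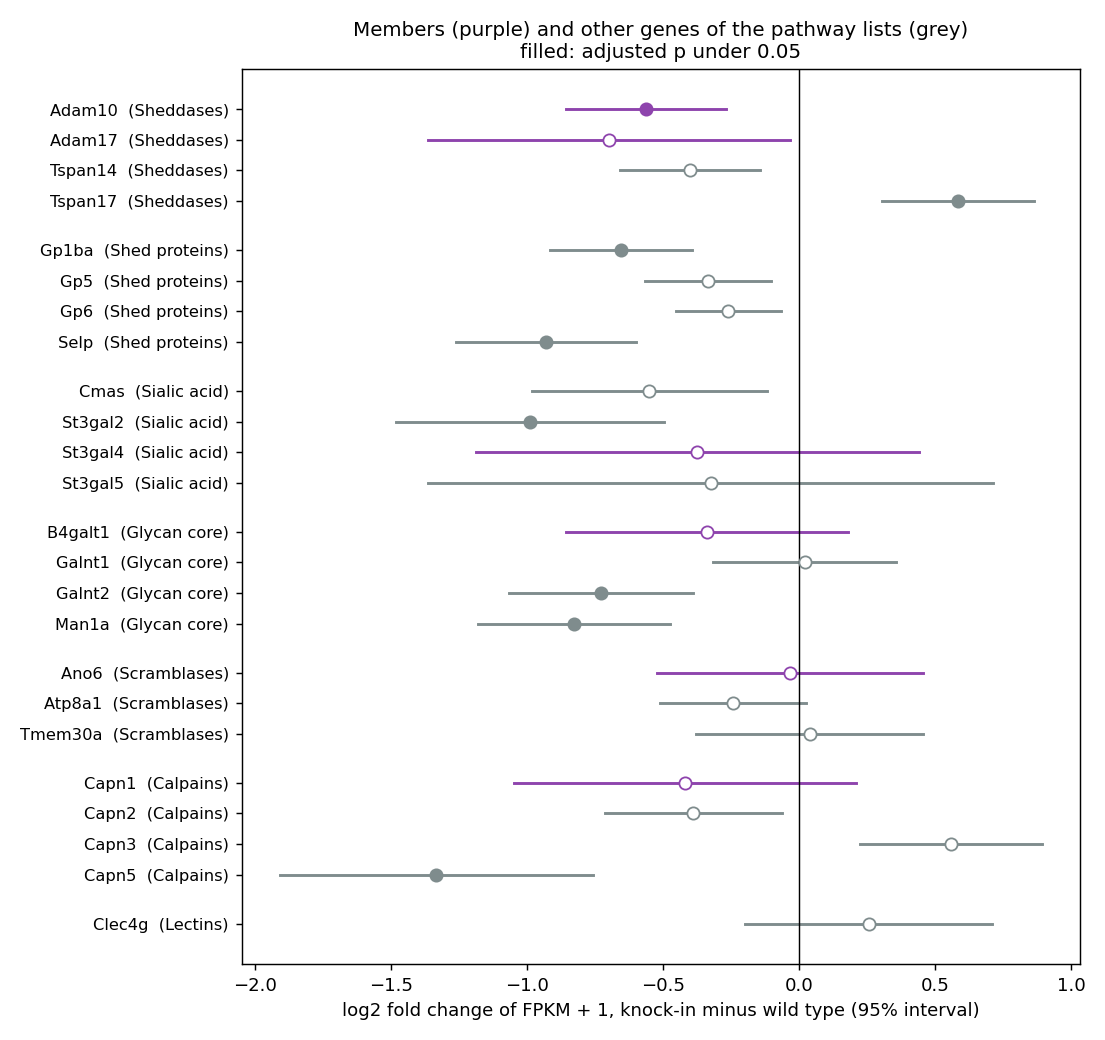
Log2 fold change of FPKM + 1, knock-in minus wild type, with its 95% interval, for the 6 tested members (purple) and the other named genes of the lists (grey), grouped by list; filled points passed at an adjusted p under 0.05. Adam10 is the filled member, at -0.56, and Tspan17, at 0.58, is the filled point to the right of 0.

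Ano6, the calcium-activated scramblase, measured 19.6, 14.2 and 23.3 FPKM in knock-in libraries, against 20.2, 22.2 and 15.7 FPKM in wild-type libraries. The ranges overlapped, and 1 knock-in library lay below and 1 above every wild-type library. The mean was 19.0 ± 4.59 FPKM in the knock-in and 19.3 ± 3.34 FPKM in the wild type (SD, n = 3 each). The log2 fold change was -0.035 with an SE of 0.21 (adjusted p = 0.943 by limma; two-sided exact permutation p = 0.9). Its 95% interval ran from -0.52 to 0.45, so differences within that range, in either direction, were not excluded. Ano6 (ENSMUSG00000064210.7) spans chr15:95790843-95974751 on the plus strand, and antisense genes overlap 1.74% and 0.994% of its exonic bases. Of 33 scramblase, flippase and subunit genes, 7 were tested and 0 fell or rose by limma (0 of them at an unadjusted p under 0.05), with a median log2 fold change of -0.035. Of all 4859 tested genes 8.36% passed and 1234 had an unadjusted p under 0.05, so 0 of 7 cannot be set apart from the rest.

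The flippase gene Atp8a1, whose product returns aminophospholipids to the inner leaflet, was the most abundant of these genes. It averaged 44.3 ± 3.58 FPKM in the knock-in and 52.5 ± 2.13 FPKM in the wild type (SD, n = 3 each) and did not pass (log2 fold change -0.24, adjusted p = 0.243 by limma), with -0.15 after removal of the length trend. Tmem30a, for the flippase subunit, averaged 25.1 ± 3.64 FPKM in the knock-in and 24.6 ± 4.93 FPKM in the wild type (SD, n = 3 each; adjusted p = 0.927 by limma). Xkr8, the scramblase gene of apoptotic cells, was listed above 0 in a single library, knock-in library 1, at 0.204 FPKM.

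Capn1, the large subunit of calpain-1, was the scarcest tested member, with a mean of 1.23 FPKM just above the filter of 1. It measured 1.28, 0.474 and 1.004 FPKM in knock-in libraries, against 1.24, 1.80 and 1.57 FPKM in wild-type libraries. Knock-in library 1 lay between wild-type libraries 1 and 3, and the other knock-in libraries lay under all wild-type libraries. The log2 fold change of -0.42 (SE 0.27, 95% interval -1.05 to 0.21) did not pass (adjusted p = 0.392 by limma; two-sided exact permutation p = 0.2). It was -0.76 with a pseudocount of 0.1 and -0.14 with 5. Leaving out knock-in library 2 gave -0.24, and leaving out both libraries richest in haemoglobin gave -0.64. Capn1 (ENSMUSG00000024942.17) spans chr19:5988545-6015897 on the minus strand, and 394 of its exonic bases (11.8%) overlap Gm10814 on the other strand.

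Other calpain genes were far more abundant. Capn2, the large subunit of calpain-2, averaged 72.6 ± 13.5 FPKM in the knock-in and 94.4 ± 4.54 FPKM in the wild type (SD, n = 3 each; log2 fold change -0.39, adjusted p = 0.128 by limma). Capns1, the small subunit that both share, averaged 74.8 ± 6.27 FPKM in the knock-in and 69.2 ± 12.2 FPKM in the wild type (SD, n = 3 each). It exceeded Capn1 53.6- to 156-fold in knock-in libraries and 43.9- to 46.4-fold in wild-type libraries, without overlap. That ratio rests on the low Capn1 values. The ratio of Capn2 to Capn1 did overlap between the groups, and ran from 53.1 to 79.1 in wild-type libraries. Knock-in library 1 lay below that range, and knock-in libraries 2 and 3 lay above it, at 138 and 87.8. Of 11 genes for calpains and the inhibitor calpastatin, 7 were tested, 1 fell and 0 rose, with a median log2 fold change of -0.32. A count of 1 in 7 cannot be set apart from the 3.99% of all tested genes that fell. The gene that fell was Capn5, a calpain without the domain that binds the small subunit, at 12.04, 11.96 and 17.0 FPKM in the knock-in, against 24.6, 37.8 and 48.0 FPKM in the wild type (log2 fold change -1.33, SE 0.25, adjusted p = 0.0169 by limma). Capn3, best known from muscle, had 105, 119 and 97.5 FPKM in the knock-in, against 60.0, 75.4 and 83.5 FPKM in the wild type, and did not pass (log2 fold change 0.56, adjusted p = 0.0528 by limma). Capn3 passed as higher with the filter raised to 5 FPKM (0.0364), with median-of-ratios scaling (0.0466) and after removal of the length trend (0.0453). Of the exonic bases of Capn2, 27.1% overlap the antisense gene Gm37885, and Capn3 shares a smaller part with Ganc, so these levels are less certain too. The Capn5 call was lost with no filter (0.0795), without the variance trend (0.0664), and without knock-in library 2 (0.0735) or 3 (0.0583) or wild-type library 2 (0.0765) or 3 (0.0645).

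Of 5 genes for lectin receptors of other cells 1 was tested, Clec4g, known from sinusoidal endothelium. It measured 29.3, 41.7 and 36.4 FPKM in the knock-in, against 25.0, 26.8 and 38.3 FPKM in the wild type. It did not pass (log2 fold change 0.26, adjusted p = 0.478 by limma), and leaving out knock-in library 1 gave 0.39, knock-in library 2 or wild-type library 1 gave 0.14, and wild-type library 3 gave 0.44. Asgr1, a chain of the hepatic asialoglycoprotein receptor, stayed between 0.215 and 1.41 FPKM, and its partner gene Asgr2 was listed at 0 throughout.

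Over all 7 lists, with 57 tested genes, 7 fell and 1 rose, where 3.99% of all 4859 tested genes fell and 4.36% rose. The median log2 fold change was -0.26 over the lists and -0.014 over all tested genes. After removal of the transcript length trend these medians were -0.16 and 0.014. The list calls then were 6 lower and 2 higher, without Adam10 and with Capn3 as higher. Before that removal, the genes that fell were Adam10, Gp1ba, Selp, St3gal2, Galnt2, Man1a and Capn5, and the gene that rose was Tspan17. These genes differ in what they do: Adam10 and Capn5 encode proteases, St3gal2, Galnt2 and Man1a encode Golgi enzymes of glycans, and Gp1ba and Selp encode adhesion receptors.

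The order of the members' levels was alike in the 6 libraries. Adam10 was first and Ano6 was second in all 6. B4galt1 came next in 5 libraries and Adam17 in wild-type library 2, and the values of this pair overlapped within each group. St3gal4, Capn1 and Gne took the last places. St3gal4 and Capn1 overlapped in both groups, while Adam17 overlapped St3gal4, and Capn1 overlapped Gne, in the knock-in and not in the wild type. Adam10 stood above 94.0% of the 12260 symbols that were above 0 in any library, Ano6 above 88.1%, B4galt1 above 79.5%, Adam17 above 77.7%, St3gal4 above 68.7%, Capn1 above 62.8% and Gne above 45.1%.

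The genes whose log2 values followed a member most closely over the 6 libraries, out of 4858 others, are given as a description, with no test, over libraries that share their groups. For Adam10 they were Acadl (Pearson r 0.998) and the Src-family kinase gene Lyn (0.992). For Adam17 they were Gcnt1, an O-glycan branching enzyme gene (0.991), and Nckap1l (0.978). B4galt1 was followed by Arl15 (0.995) and Eif4h (0.993), and St3gal4 by Lipc (0.992) and Tmc6 (0.948). Ano6 was followed by Sp2 (0.987) and Cox19 (0.987), and Capn1 by Stk24 (0.987) and Nt5dc2 (0.979).

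**Figure D4:**
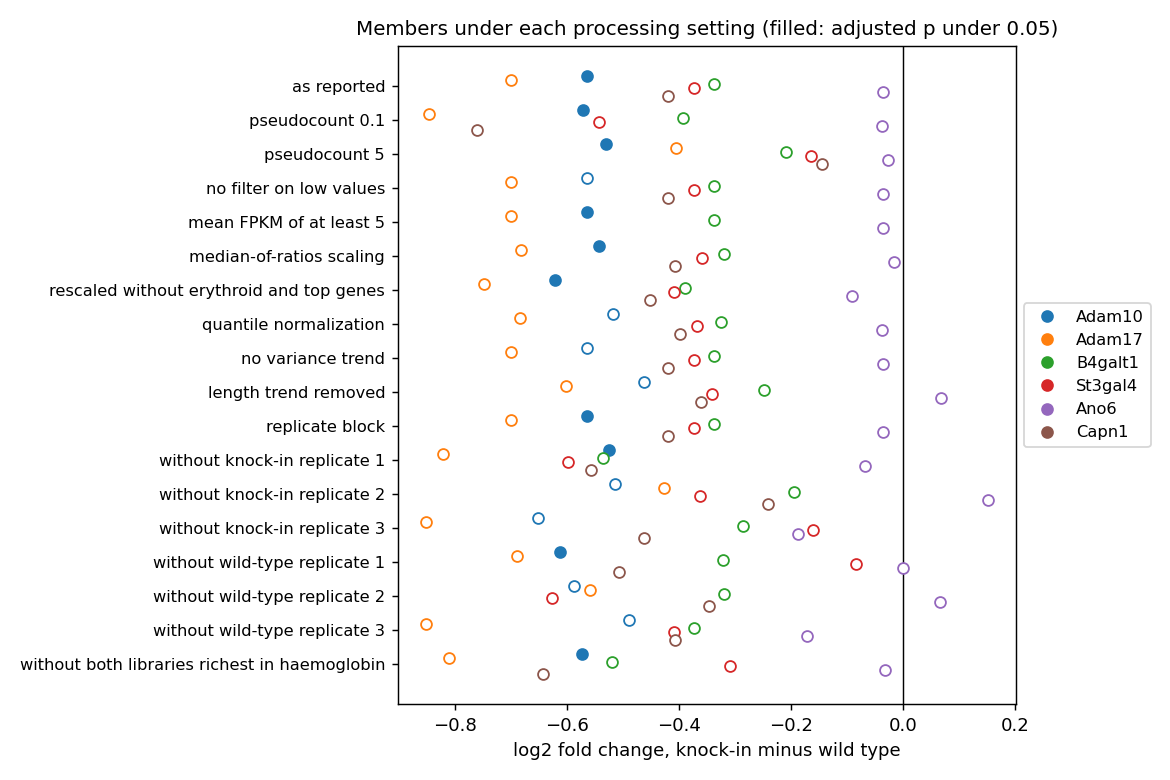
Log2 fold change, knock-in minus wild type, of the 6 tested members as reported and under each of 17 other settings; filled points passed at an adjusted p under 0.05. Adam10 is filled as reported and in 9 of the other settings, no other member is filled in any, and Ano6 lies between -0.19 and 0.15, on both sides of 0.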

How the data were processed

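The 6 mouse platelet RNA-seq libraries, 3 knock-in and 3 wild type, were grouped by sample title. Per the labels' protocols, full-length cDNA from total RNA was made with SMART-Seq HT and sequencing libraries with Nextera XT, neither of which marks strand. Each library has 1 deposited table, which gives FPKM by symbol. The submitters' processing notes name Cuffdiff 2.2.1, SAMtools 0.1.18, Bowtie2 2.2.8 and TopHat2 2.1.1 and build mm10. Settings and gene annotation are not given in the sources used here.

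A value of exactly 0 can be a failed estimate, so such a gene is given as listed at 0. Depth is known only in relation to wild-type library 1, so values carry no counting intervals. Libraries were not rescaled. Genes with a mean of at least 1 FPKM, 4859 of 24346, were tested with limma 3.58.1 (R 4.3.3) on log2(FPKM + 1), fitted by genotype with a variance trend, two-sided, with Benjamini-Hochberg adjustment over all tested genes and a threshold of 0.05. This scale understates the change of low genes. The fit was also run on simulated data with known changes and independent noise for each gene. Those changes were larger than that of Adam10, and no shift was shared by a whole library. The simulation therefore cannot speak to smaller changes or to such shifts. Gene positions are from GENCODE M21 (GRCm38, the build of mm10) and promoters from RefSeq GRCm38.p6.

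The members and the lists were chosen with earlier results of these data known. Named genes are the members, list genes that passed, the 2 most abundant tested genes of each list and the 2 tested genes most like each member. Tspan33, Frmd8, Rhbdf2, Timp3, Nans, Nanp, Slc35a1, St3gal1, St6galnac6, Neu1, Xkr8, Capns1, Asgr1, Asgr2, Lyz2 and Nkg7 were chosen after their values were seen. So were Cd84, Tubb1, Ppbp, Pf4 and Gp9. Alternatives were other pseudocounts, filters, scalings, no variance trend, removal of a transcript length trend, a replicate block and each library left out. Fold changes of single genes under them were read for the tested members and the list genes named by the rule, 24 in all. They were not read for the genes most like each member. For other list genes, among them Tspan33, Frmd8, Timp3 and St6galnac6, only whether they passed was read.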

Additional observations from a re-analysis of the deposited data

How the results depend on the processing

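Of 4859 genes tested 406 passed, 194 lower and 212 higher in the knock-in, and rescaling without erythroid and the most abundant genes turned this split to 257 lower and 180 higher. The 406 became 107 with no filter, 728 without both libraries richest in haemoglobin (chosen after seeing the data) and 0 without the variance trend (limma; 1197 at an unadjusted p under 0.05), and ranged from 0 (without knock-in replicate 3, 994 at an unadjusted p under 0.05) to 610 (without knock-in replicate 1) with single libraries left out. It was 306 with the replicate block, which left the calls at 1 for the members and 8 for the lists; the labels do not say that the numbers pair libraries, same-numbered deviations correlated at 0.158, 0.0235 and 0.141, and knock-in library 2 correlated best with wild-type library 3. The member call, that of Adam10, became 0 by limma with no filter, with quantile normalization, without the variance trend (2 members at an unadjusted p under 0.05 in each) and after removal of the length trend (1), and ranged from 0 to 1 with single libraries left out. The 8 list calls became 1 with no filter, 0 without the variance trend (18 at an unadjusted p under 0.05) and 13 without both haemoglobin-rich libraries, and ranged from 0 to 13 with single libraries left out. The cause of these losses was not tested, beyond the fewer samples or more genes that some settings use. Among 24 genes, the tested members and the list genes named by rule, and 17 alternatives, signs changed only for Ano6, Galnt1, Tmem30a and St3gal5, none of which had passed. With single libraries left out, the log2 fold change of Ano6 ranged from -0.19 to 0.15 (0.15, 0.00015 and 0.066 without knock-in replicate 2, wild-type replicate 1 and wild-type replicate 2), of Galnt1 from -0.12 to 0.14, of Tmem30a from -0.076 to 0.19 and of St3gal5 from -0.96 to 0.030. Length removal gave 0.068 for Ano6, rescaling gave -0.038 for Galnt1 and -0.018 for Tmem30a, and leaving out both haemoglobin-rich libraries gave -0.12 for Galnt1. Only Adam10, Ano6, B4galt1 and Adam17 had a mean above 5 FPKM, so St3gal4 and Capn1 had no value under that filter.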

Other observations

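Lyz2, the lysozyme gene used as a marker of monocytes and macrophages, measured 7205, 8734 and 9127 FPKM in knock-in libraries and 8240, 7033 and 7776 FPKM in wild-type libraries, while the other 7 genes of that marker list stayed under 1 FPKM in every library. Nkg7, from the list of T and NK cell markers, measured 6.37, 8.83 and 4.68 FPKM in knock-in libraries and 4.42, 3.87 and 2.67 FPKM in wild-type libraries, without overlap. It did not pass (log2 fold change 0.70, adjusted p = 0.151 by limma), and the other 7 genes of its list stayed under 1 FPKM.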
